A study of Oryza sativa with 10 samples.

Results

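Between 48 and 72 hours after fertilization (HAF), 78 of the 55801 rice genes counted in developing seeds went from next to no reads to a clear level in every genotype sampled. They were chosen by their measured values: at most 3 reads in each of the 5 libraries at 48 HAF, and at least 1 CPM (a gene's reads for every 1000000 counts of the library) in each of the 5 libraries at 72 HAF. Those limits were met by 81 genes. A list of 10 genes was set aside by name, of which 3 meet the limits, which leaves 78. The change with time is therefore how the genes were found and is given as a description, with no test. The tests concern how the genotype classes differ from each other at 72 HAF. The choice set no order among the genotypes, but it did use each 72 HAF library through the lowest level allowed.

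The study measured RNA in rice (Oryza sativa) seeds freed of the husk, at each time in 5 genotypes with 1 library each, so 10 libraries in all. The groups were wild type (WT), line OE78-8 labelled as overexpressing MADS78 (OE78), line OE79-3 labelled as overexpressing MADS79 (OE79), line Cr78_8.22.2 edited by CRISPR at MADS78 (CR78) and line Cr79_11.25.3 edited at MADS79 (CR79). Each manipulation is thus represented by 1 line, with 1 library of it at each time. Nothing in the labels gives the promoter of the transgenes, the edited alleles or how many seeds and plants went into a library. The p-values speak of the spread among these libraries alone. The effect of a manipulated gene cannot be told apart from other differences of its line. With both limits lifted for OE79 the rule would give 109 genes, for OE78 107, for CR79 99, for WT 88 and for CR78 84, so the limits removed more genes through the OE libraries than through WT or CR78.

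In this window the rice endosperm, the tissue that feeds the seedling, passes from free nuclei in a common cytoplasm to walled cells. Once walled, its cells begin to make the enzymes of starch synthesis and, later, the storage proteins of the grain. Both MADS78 and MADS79 belong to type I of the MADS-box genes, transcription factors known for their expression in the female gametophyte and young endosperm. The libraries were made from whole seeds, so they also hold RNA of the embryo and of the maternal seed coat and pericarp. In such bulk samples, more cells of a type and more RNA per cell cannot be told apart.

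Library totals lay between 12267337 counts in CR79 at 72 HAF and 18040600 in WT at 72 HAF. In the 48 HAF libraries 3 reads correspond to between 0.178 and 0.193 CPM, so a gene below the limit at 48 HAF may still be expressed at a lower level. Reads of MADS78 (LOC_Os09g02830) were raised only in OE78 at 72 HAF, at 2116 reads, and stood at 0 to 6 elsewhere, which includes 6 in OE78 at 48 HAF. Those of MADS79 (LOC_Os01g74440) were not raised in the libraries labelled OE79, at 39 and 7 reads against 33 and 20 in WT. OE78 and OE79 are therefore names of labels here, and a direction drawn from the class labelled overexpression rests on a label that the reads of MADS79 go against. CR78 at 48 HAF stood apart for HSP101 (LOC_Os05g44340), a heat shock chaperone, with 146 CPM against 9.18 to 17.8 CPM in the other 9 libraries. The green pericarp marker Cab2R (LOC_Os01g41710), for a chlorophyll-binding protein, had 821 to 2752 CPM over the 10 libraries. SWEET11 (LOC_Os08g42350), a sugar exporter of the young grain, had 329 to 1457 CPM.

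The files carry identifiers of the LOC_Os form and no gene names, and the RefSeq gene table used here pairs none of these identifiers with a name. The 78 genes are therefore given by identifier, with no role. In this scheme the digits after Os give the chromosome, and the number after g follows the order of genes along it. CPM is not corrected for gene length, so levels are compared between libraries for the same gene and not between genes.

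At 48 HAF the 78 genes together had 169 reads over the 5 libraries. Of these OE79 had 50, CR79 had 41, CR78 had 31, WT had 24 and OE78 had 23. The number of the genes with any read was 32 in OE79, 21 in CR78, 20 in CR79 and 15 each in WT and OE78. No read at all was seen at 48 HAF for 30 of the 78 genes, and 16 had reads in 1 library only. The limit of 3 reads was reached in at least 1 library by 16 genes.

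At 72 HAF the same genes had 30863 reads in CR78, 18360 in CR79, 11242 in WT, 8056 in OE79 and 7164 in OE78. As a sum this was 1981 CPM in CR78 and 1497 in CR79, against 623 in WT, 453 in OE78 and 525 in OE79. The median gene stood at 11.4 CPM in CR78 and 8.97 in CR79, against 4.71 in WT, 3.16 in OE78 and 3.26 in OE79. Both CRISPR libraries thus lay above the WT library, and both libraries labelled overexpression below it. Without the 6 genes of the highest mean level, the sums were 1279 CPM in CR78 and 964 in CR79, against 428 in WT, 296 in OE78 and 358 in OE79. The mean over the 72 HAF libraries was at least 10 CPM for 28 genes, between 5 and 10 CPM for 18 and below 5 CPM for 32, and it ran from 1.42 to 82.7 CPM.

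**Figure D1:**
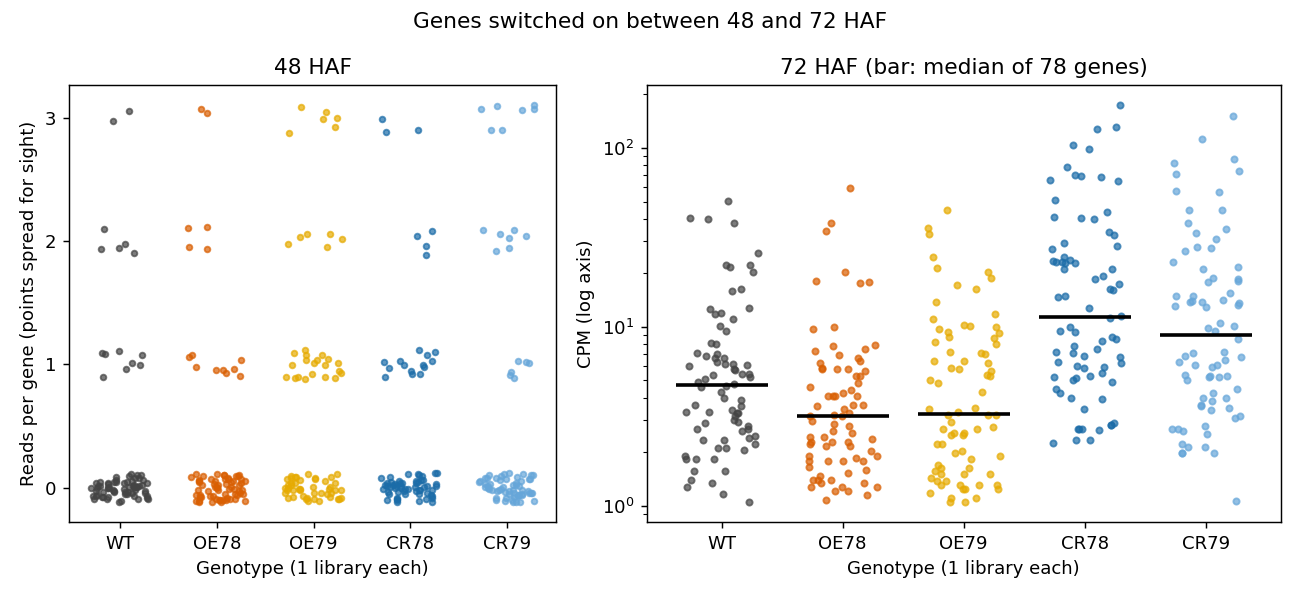
Reads per gene at 48 HAF (left) and CPM at 72 HAF on a log axis (right) for the 78 genes, with 1 point per gene and 1 library per genotype. At 48 HAF no gene exceeds 3 reads. At 72 HAF the medians, drawn as bars, are 11.4 CPM in CR78 and 8.97 in CR79, against 4.71 in WT, 3.16 in OE78 and 3.26 in OE79.

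The opposite pattern was not found: no gene had at least 1 CPM in every 48 HAF library and at most 3 reads in every 72 HAF library. Just inside the limits, LOC_Os08g35060 and LOC_Os10g20960 had a lowest level at 72 HAF of 1.04 CPM and LOC_Os06g09920 one of 1.05 CPM. Just outside, LOC_Os03g29570 had 0.998 CPM in WT, and LOC_Os12g06760 and LOC_Os06g12330 had 0.949 CPM in OE78. A further 21 genes were left out because their highest count at 48 HAF was 4 reads.

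The 6 genes with the highest mean at 72 HAF show a wide range of behaviour. LOC_Os07g41290 had no read at 48 HAF and at 72 HAF stood at 174 CPM in CR78 and 151 in CR79, against 37.7 in WT, 6.27 in OE78 and 44.6 in OE79. The CRISPR libraries were the highest, while OE78 lay far below the other 4 libraries. Pooled over the genotypes this gene was at least 2108-fold higher at 72 than at 48 HAF, counting its 48 HAF level as 3 reads over the 5 libraries. LOC_Os01g33370 also had no read at 48 HAF and stood at 131 CPM in CR78 and 81.7 in CR79, against 50.2 in WT, 59.6 in OE78 and 35.8 in OE79. It was at least 1901-fold higher at 72 HAF by the same reckoning. Here the 2 libraries labelled overexpression lay on either side of WT, and both CRISPR libraries were higher.

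LOC_Os01g68820 had 3 reads in OE79 and 3 in CR79 at 48 HAF and none in the other 3 libraries. At 72 HAF it stood at 127 CPM in CR78 and 56.4 in CR79, against 40.5 in WT, 34.3 in OE78 and 24.6 in OE79. LOC_Os07g42390, with 1 read in OE79 and 2 in CR78 at 48 HAF, stood at 104 CPM in CR78 and 112 in CR79, against 21.6 in WT, 17.7 in OE78 and 18.6 in OE79. Its WT and OE libraries were close to each other, and its CRISPR libraries were close to each other at a higher level.

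LOC_Os02g38940 differed least among these 6, with 68.7 CPM in CR78 and 44.6 in CR79, against 39.8 in WT, 37.8 in OE78 and 33.0 in OE79. LOC_Os03g40440 differed most, with 98.4 CPM in CR78 and 86.5 in CR79, against 5.43 in WT, 1.39 in OE78 and 10.2 in OE79. It had no read at 48 HAF and, pooled over genotypes, was at least 1005-fold higher at 72 HAF. The ratio of the highest to the lowest library at 72 HAF was 70.7 for this gene, the largest of the 78, and 2.08 for LOC_Os02g38940.

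**Figure D2:**
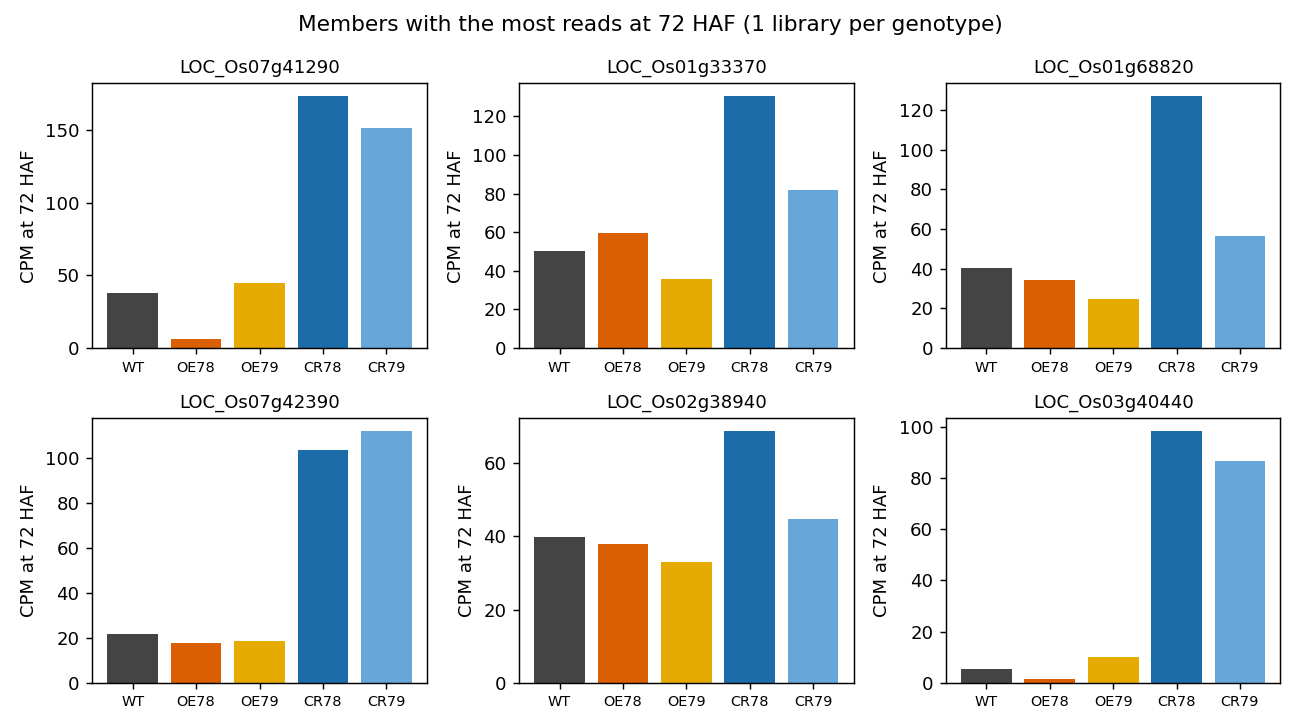
CPM at 72 HAF of the 6 genes with the highest mean, 1 bar per genotype and 1 library per bar. In all 6 both CRISPR bars are higher than the WT bar, an order seen for 67 of the 78 genes. Among all genes with at least 1 CPM in every 72 HAF library its share was 26.3%. The mean that ranked the genes includes the CRISPR libraries. OE78 is at 6.27 CPM for LOC_Os07g41290 and 1.39 CPM for LOC_Os03g40440, the lowest bar of each.

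The comparison of the CRISPR lines with the lines labelled overexpression at 72 HAF asks how the genes switched on in this window differ with the direction in which MADS78 or MADS79 was meant to be changed. Both CRISPR libraries were above both OE libraries for 66 of the 78 genes, and for none were both below. Among the 20428 genes with at least 1 CPM in every 72 HAF library, both CRISPR libraries were above in 21.5% and below in 28.5%. Both CRISPR libraries were above WT as well as both OE libraries for 63 of the 78 and below all 3 for none, with 13.5% and 22.5% among those 20428 genes. The full order, with both CRISPR libraries above WT and both OE libraries below it, was seen for 32 of the 78 and for 5.51% of those genes. The highest library was CR78 for 53 of the 78 genes, CR79 for 19, OE78 for 4, WT for 2 and OE79 for none. Over the 20428 genes these shares were 17.1% for CR78, 20.9% for CR79, 17.1% for OE78, 25.4% for WT and 19.6% for OE79. The lowest was OE78 for 34, OE79 for 34, WT for 6, CR79 for 3 and CR78 for 1, where the shares over all those genes were 17.0%, 17.5%, 13.4%, 35.5% and 16.7% in the same order.

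The test across all genes used edgeR's quasi-likelihood fit of a mean for each class and time, with the 2 lines of a class as its replicates. Its estimate of the spread also takes in the 48 HAF libraries, in which the choice held the 78 genes to 3 reads. In it, 7 of the 78 genes were higher in the CRISPR class, and none was lower, at an adjusted p under 0.05. Over all 26632 genes tested, 0.447% were higher and 0.526% lower. Of the 78 genes 54 had an unadjusted p under 0.05 (edgeR), all in the direction of higher in CRISPR, against 16% of all genes in either direction. The median log2 difference was 1.52 over the 78 genes and 0.03 over all genes tested, with 75 positive and 3 negative values among the 78.

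LOC_Os07g42390, described above, had the smallest adjusted p of the 78, at 0.00717 (edgeR), with a log2 difference of 2.63 and an SE of 0.236. LOC_Os09g10330 had no read at 48 HAF and stood at 12.7 CPM in CR78 and 14.1 in CR79, against 1.83 in WT, 1.202 in OE78 and 1.37 in OE79. Its log2 difference was 3.43 with an SE of 0.397 (adjusted p = 0.0254, edgeR). In both genes the WT library lay close to the 2 OE libraries and far from the 2 CRISPR libraries.

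LOC_Os10g25180 stood at 43.6 CPM in CR78 and 27.5 in CR79, against 12.7 in WT, 7.91 in OE78 and 6.38 in OE79. Its log2 difference was 2.37 with an SE of 0.318 (adjusted p = 0.0291, edgeR). LOC_Os08g04740 stood at 33.8 CPM in CR78 and 30.7 in CR79, against 10.03 in WT, 5.76 in OE78 and 8.66 in OE79, a log2 difference of 2.22 with an SE of 0.323 (adjusted p = 0.0291, edgeR). In both of these genes the OE libraries lay below WT and the CRISPR libraries above it. The other 3 that passed were LOC_Os11g18140, LOC_Os01g41370 and LOC_Os01g33350, with log2 differences of 2.89, 2.12 and 3.53. LOC_Os01g41370, for example, stood at 70.7 CPM in CR78 and 44.8 in CR79, against 20.2 in WT, 17.5 in OE78 and 10.03 in OE79.

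The number that passed depends on single libraries. Without OE78 at 72 HAF none of the 78 genes passed, without OE79 at 72 HAF 4 passed, none of them among the 7, and without either CRISPR library at 72 HAF 1 passed, LOC_Os07g42390 (edgeR). Over all genes the calls fell as well, from 259 to 5 without OE78, 25 without OE79, 127 without CR78 and 26 without CR79 at 72 HAF. With OE78 at 48 HAF or OE79 at 48 HAF left out, 12 passed, of 473 and 485 genes in all, and without CR78 at 48 HAF 10 passed, of 231. Under these settings the median log2 difference of the 78 genes stayed between 1.23 and 1.82. In a fit of the 5 libraries at 72 HAF alone 29 of the 78 passed, where 1.07% of all genes were higher and 1.45% lower. With DESeq2 also 29 passed, where 1.57% of all genes with an adjusted p were higher and 3.38% lower. Without a filter on low counts 44 passed, where 1.74% of all genes were higher and 3.37% lower. All calls among the 78 under these 3 settings were higher in CRISPR, and the 7 were included each time.

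Against WT, both CRISPR libraries were higher for 67 of the 78 genes and both lower for 4, where the shares among all genes with at least 1 CPM in every 72 HAF library were 26.3% and 45.8%. The median log2 difference of the CRISPR class from WT was 1.24. None of the 78 genes passed in edgeR (adjusted p of 0.077 or more), in a comparison where WT has 1 library at this time and 1 gene of 26632 passed (0.00375% higher and 0% lower). At an unadjusted p under 0.05 there were 33 (edgeR), all higher in CRISPR, against 9.94% of all genes in either direction. DESeq2 called 10, all higher, where it called 0.665% of all genes higher and 0.397% lower. Without a filter edgeR called 25 higher, against 0.952% of all genes higher and 1.29% lower, and from the 72 HAF libraries alone 1, against 0.0156% of all genes higher.

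The smallest unadjusted values against WT belonged to LOC_Os07g42390, at a log2 difference of 2.41 with an SE of 0.306 (adjusted p = 0.077, edgeR), and LOC_Os09g10330, at 2.96 with an SE of 0.507 (adjusted p = 0.234, edgeR). Both were also the first 2 of the comparison of the CRISPR with the OE class, with which this one shares the CRISPR libraries.

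Both OE libraries were lower than WT for 37 of the 78 genes and both higher for 8, with 41.4% and 30.6% among all genes at that level. The share with both lower is thus near that of genes in general, and the median log2 difference of the class from WT was -0.29. None of the 78 passed in edgeR (adjusted p of 0.986 or more), while 2 of 26632 genes did (0.00751% higher and 0% lower). At an unadjusted p under 0.05 there was 1 (edgeR), against 4.41% of all genes, and DESeq2 called none, where it called 0.137% of all genes higher and 0.0259% lower. That 1 gene is LOC_Os11g18140, which stood at 6.15 CPM in WT, 1.77 in OE78 and 3.52 in OE79, a log2 difference of -1.19 with an SE of 0.5 (adjusted p = 0.986, edgeR). LOC_Os10g25180 followed, at -0.79 with an SE of 0.369 (adjusted p = 0.986, edgeR).

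Taken line by line, with 1 library against 1 and no replicate, CR78 was at least 2-fold above WT for 51 of the 78 genes and below for none, where 2.2% and 2.9% of all genes at 1 CPM or more reached that fold. CR79 was at least 2-fold above WT for 35 and below for 1, with 2.97% and 5.39% among all genes. OE78 was above for none and at least 2-fold below for 16, with 1.25% and 1.78% among all genes. OE79 was above for none and below for 11, with 1.75% and 1.01% among all genes. The median ratio to WT was 2.6 in CR78, 1.86 in CR79, 0.745 in OE78 and 0.786 in OE79, where over all genes it was 0.95, 0.916, 0.968 and 0.973. All 4 ratios share the WT library, so they are not independent of each other.

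At 4-fold, CR78 was above WT for 17 of the 78 genes and below for none, with 0.308% and 0.23% among all genes. CR79 was above for 11 and below for none, with 0.406% and 0.866%. OE78 was above for none and below for 3, with 0.186% and 0.113%, and OE79 for none in either direction, with 0.157% and 0.0245%. Both CRISPR lines thus had members at this fold in the upward direction alone, and OE78 in the downward direction alone.

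**Figure D3:**
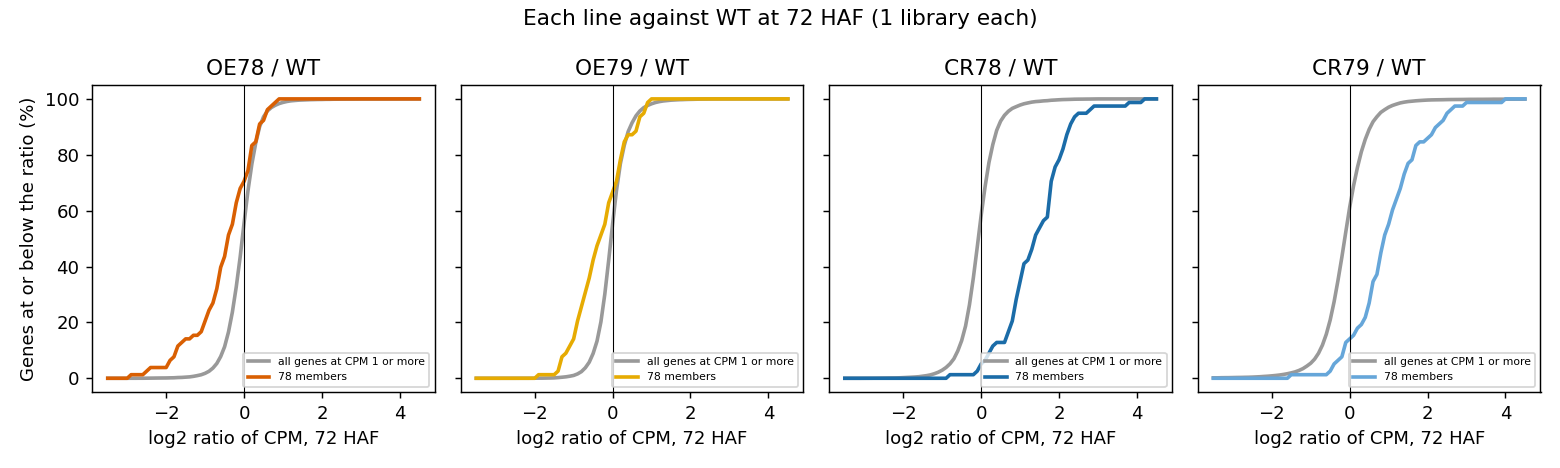
Cumulative share of genes by the log2 ratio of CPM to WT at 72 HAF, for the 78 genes (coloured) and all 20428 genes with at least 1 CPM in every 72 HAF library (grey), 1 panel per line and 1 library per line. The coloured curve lies to the right of the grey one in CR78 and CR79, where the median ratios are 2.6 and 1.86, and to the left in OE78 and OE79, where they are 0.745 and 0.786.

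Lines of the same class also differed from each other. CR79 was at least 2-fold below CR78 for 14 of the 78 genes and above for none, against 2.47% and 1.81% of all genes at that level. OE79 was at least 2-fold above OE78 for 14 genes and below for 7, against 1.96% and 0.695% of all genes. At 4-fold there were 7 above and 1 below, against 0.157% and 0.0441% of all genes. The 7 were LOC_Os02g07628, LOC_Os02g54960, LOC_Os03g40440, LOC_Os04g49720, LOC_Os07g41290, LOC_Os12g13960 and LOC_Os12g25130, picked out after their values were seen. In all 7 genes both CRISPR libraries were above the other 3. That order is not particular to them, since it held for 63 of the 78 and for 13.5% of all genes at that level. Their ratio to WT lay between 0.125 and 0.353 in OE78 and between 1.002 and 1.88 in OE79. The 1 gene below was LOC_Os06g12000, also picked out after its values were seen, with 7.78 CPM in OE78 and 1.43 in OE79, against 5.71 in WT, 5.01 in CR78 and 4.24 in CR79.

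LOC_Os02g54960 stood at 69.8 CPM in CR78 and 71.2 in CR79, against 16.2 in WT, 2.03 in OE78 and 16.2 in OE79. OE78 was the lowest library, and WT and OE79 were at the same level. LOC_Os04g49720 stood at 66.3 CPM in CR78 and 74.1 in CR79, against 12.6 in WT, 3.67 in OE78 and 20.1 in OE79. At 72 HAF, OE78 is also the library with 2116 reads of MADS78, and with 1 library of that kind its part in these values was not tested.

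**Figure D4:**
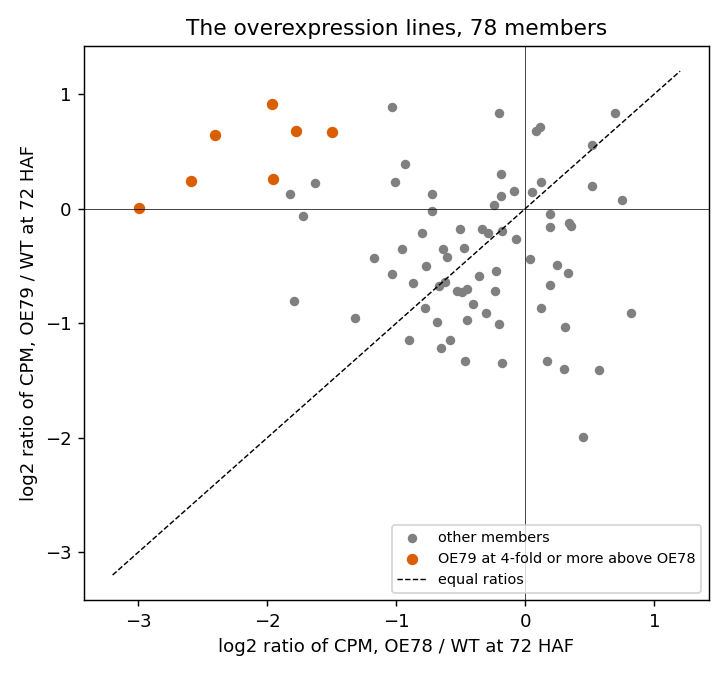
Log2 ratio of CPM to WT at 72 HAF in OE79 against that in OE78, 1 point per gene for the 78 genes, with the line of equal ratios dashed. The 7 genes in colour lie at 0.125 to 0.353 times the WT level in OE78 and at 1.002 to 1.88 times in OE79.

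A minority of the genes departed from the order with the CRISPR libraries on top. In 15 of the 78 the CRISPR libraries were not both above the other 3. The genes with the smallest spread over the genotypes were LOC_Os01g32630, LOC_Os11g01090 and LOC_Os09g29284. LOC_Os01g32630 stood at 2.31 CPM in CR78 and 2.12 in CR79, against 2.38 in WT, 1.39 in OE78 and 1.303 in OE79. LOC_Os09g29284 stood at 2.82 CPM in CR78 and 2.69 in CR79, against 2.94 in WT, 2.15 in OE78 and 1.498 in OE79. In both WT was the highest library and OE79 the lowest. LOC_Os11g01090 stood at 2.82 CPM in CR78 and 2.61 in CR79, against 1.55 in WT, 1.77 in OE78 and 1.498 in OE79, so here the CRISPR libraries were the highest. Over the 78 genes the median ratio of the highest to the lowest library was 4.39, and it was 1.52 over all genes with at least 1 CPM in every 72 HAF library.

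The genes are spread over all 12 chromosomes by their identifiers, with 12 on chromosome 1, 11 each on chromosomes 2 and 11, 8 each on 4 and 12, and 1 on chromosome 3. In 7 pairs the genes lay with at most 10 counted features between them, and no run was longer than a pair. LOC_Os02g07624 and LOC_Os02g07628 are direct neighbours with similar values. The former stood at 28.2 CPM in CR78 and 37.99 in CR79, against 8.04 in WT, 2.59 in OE78 and 9.38 in OE79. The latter stood at 27.3 CPM in CR78 and 27.96 in CR79, against 6.10 in WT, 2.15 in OE78 and 9.71 in OE79. Whether reads of such neighbours or of near-identical copies were split between them cannot be resolved from the counts. LOC_Os01g33350 and LOC_Os01g33370 flank LOC_Os01g33360, which had up to 257 reads in a 48 HAF library and is outside the set. LOC_Os01g33350 stood at 78.2 CPM in CR78 and 33.3 in CR79, against 5.99 in WT, 2.97 in OE78 and 7.04 in OE79.

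Genes that missed the limits by a little were counted in the same way. With up to 10 reads allowed at 48 HAF, 110 more genes would join, and both CRISPR libraries were above both OE libraries in 80 of them and below in 2. With 0.5 CPM allowed at 72 HAF, 57 more would join, with 49 above and 1 below. In edgeR, 11 of the 110 and 2 of the 57 were higher in the CRISPR class and none lower. Among the 20428 genes with at least 1 CPM in every 72 HAF library, both were above in 21.5% and below in 28.5%. The 57 fall short of that level, so they are not part of those 20428. They join through a low library at 72 HAF, and among the 78 the lowest was OE78 for 34 and OE79 for 34. That choice bears on the order, so the count of 49 is a description only. Of the 26632 genes tested, 0.447% were called higher and 0.526% lower. Neither set was compared by test with the 78, and both share the libraries.

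Known genes of the filling grain were set beside the 78 from lists of published names. Of 11 seed storage protein genes, 3 of 10 tested were higher in the CRISPR than in the OE class and none lower at 72 HAF (edgeR), where 0.447% of all genes tested were higher and 0.526% lower. Their summed level was 156 CPM in CR78 and 336 in CR79, against 8.81 in WT, 4.81 in OE78 and 11.01 in OE79. At most 3 reads in every 48 HAF library were seen for 9 of the 11, and none of these 9 reached 1 CPM in all 72 HAF libraries. GluA2 (LOC_Os10g26060), a glutelin gene, stood at 1.89 to 4.73 CPM at 72 HAF but already had 56 to 82 reads at 48 HAF. Against the same shares, 7 of 14 starch synthesis genes were higher and none lower (edgeR), with a summed level of 11730 CPM in CR78 and 7401 in CR79, against 5591 in WT, 5757 in OE78 and 5095 in OE79. None of these 14 stayed at 3 reads or fewer at 48 HAF. A subunit of ADP-glucose pyrophosphorylase, which makes the precursor of starch, is encoded by AGPS2 (LOC_Os08g25734), at 1205 CPM in CR78 and 780 in CR79, against 361 in WT, 363 in OE78 and 340 in OE79. Both CRISPR libraries were above both OE libraries for 9 of the 14 starch genes and below for none. Among the 20428 genes with at least 1 CPM in every 72 HAF library these shares were 21.5% and 28.5%. SSI (LOC_Os06g06560), a starch synthase, did not share this order. It stood at 395 CPM in CR78 and 278 in CR79, against 351 in WT, 386 in OE78 and 342 in OE79. As sums, the storage and starch lists were highest in the same libraries as the 78 genes.

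Of 6 genes for sugar transport 1 was higher and none lower (edgeR, with 0.447% and 0.526% over all genes), namely SUT1 (LOC_Os03g07480), a sucrose transporter. It stood at 91.4 CPM in CR78 and 89.7 in CR79, against 46.0 in WT, 45.4 in OE78 and 38.8 in OE79. The other sugar transport genes did not share this order. Both CRISPR libraries were above both OE libraries for 1 of the 6 and below for 2, and the median log2 difference was -0.2. Among the 20428 genes with at least 1 CPM in every 72 HAF library these shares were 21.5% and 28.5%. In so few genes, such counts do not set the list apart from genes in general. SWEET4 (LOC_Os02g19820), a sugar exporter, stood at 94.9 CPM in CR78 and 117 in CR79. Its level was 131 CPM in WT, 122 in OE78 and 146 in OE79. Of 6 endosperm regulators and 3 tested auxin genes none passed. The regulators include LOC_Os06g17480, the only 1 of the 78 genes on any list, with no read at 48 HAF. At 72 HAF it stood at 15.9 CPM in CR78 and 15.5 in CR79, against 6.15 in WT, 3.16 in OE78 and 4.82 in OE79, a log2 difference of 2.03 with an SE of 0.343 (adjusted p = 0.0566, edgeR).

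Markers of other tissues did not pass the same test, which called 0.447% of all genes higher and 0.526% lower. At those shares, the lack of a call among so few genes does not set them apart from genes in general. The 2 green pericarp genes summed to 3863 CPM in CR78 and 3401 in CR79, against 3036 in WT, 3543 in OE78 and 3256 in OE79. The 3 oil body and LEA genes, known from the embryo and aleurone, summed to 31.1 CPM in CR78 and 29.8 in CR79, against 23.5 in WT, 67.6 in OE78 and 56.1 in OE79. LEA3 (LOC_Os05g46480) made up nearly all of these sums. It stood at 29.0 CPM in CR78 and 28.4 in CR79, against 23.1 in WT, 67.2 in OE78 and 54.1 in OE79. OLE18 (LOC_Os03g49190), an oleosin gene of the same list, did not share that order. At 0.834 CPM in CR78 and 1.14 in CR79 it was above OE78 at 0.443 and OE79 at 0.782. The remaining gene of the list stood at 0 to 1.22 CPM at 72 HAF. The meristem gene OSH1 (LOC_Os03g51690) was lowest in the CRISPR libraries, at 2.12 CPM in CR78 and 1.47 in CR79. It stood at 8.26 CPM in WT, 6.33 in OE78 and 12.7 in OE79. Its log2 difference of the CRISPR from the OE class was -2.33 with an SE of 0.502 (adjusted p = 0.0718, edgeR). GAMYB (LOC_Os01g59660), a gene known from the anther and also from the aleurone, stood at 25.1 to 37.0 CPM at 72 HAF. No marker list was at 0. The part of tissue composition, or of the stage reached by each library, in the levels of the 78 genes was not tested.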

How the data were processed

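The deposited files give whole-number counts of reads per gene, 1 file per library and 1 sample per genotype and time, with no normalization by the authors. The submitters' processing notes name HTSeq and TopHat2 as the tools. The sources used here do not give the genome build, annotation, filters or strand setting, so overlapping, antisense and near-identical genes may share reads. CPM in the text is the count times 1000000 over the file total.

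Tests used edgeR 4.0.16 in R 4.3.3 on the counts, TMM-scaled, with genes kept by filterByExpr at a minimum count of 10 (26632 genes) and a mean per class (WT, overexpression, CRISPR) and time. The design leaves 4 residual degrees of freedom, and the biological coefficient of variation of the fit was 22.2%. The 30 genes with no read at 48 HAF have no spread at that time, so fewer libraries inform theirs. Tests had both sides, with p-values adjusted by Benjamini-Hochberg across the genes kept, at a threshold of 0.05. The SE is the log2 difference over the square root of the F statistic. All 78 genes passed the filter, through their 72 HAF libraries. The code of the fit was tested on simulated data, whose values are not quoted. DESeq2 1.42.0 was an alternative.

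The members and lists were chosen with earlier results of these data known. Of 52 published pairs of name and identifier, 3 were contradicted by the position of the named RefSeq gene (within 3 Mb) and 1 identifier was absent. Of the rest, 21 passed and 27 names were not in the table. All 48 are counted in the lists, but only pairs that passed are named, and MADS78, MADS79 and HSP101. Named genes are those in a list, the 6 with the highest mean, up to 4 per contrast past the threshold (otherwise the 2 with the smallest p), the 3 with the largest and smallest spread, and those at the limits. The other 3 that passed, genes at 4 reads, pairs, the 8 genes apart in OE78 and OE79 and the sets under looser limits were chosen after the values were seen. No sequence is given, since the tables used here hold none. Other alternatives were the scaling, the filter, 72 HAF alone, each library left out, and the limits of the rule.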

Additional observations from a re-analysis of the deposited data

Results flagged for a closer look

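At 72 HAF the difference from WT of the CRISPR class and that of the overexpression class were themselves different for 7 of the 78 genes, by the test of the CRISPR against the overexpression class (edgeR, adjusted p between 0.00717 and 0.0458). The log2 difference was 3.53 for LOC_Os01g33350, 2.12 for LOC_Os01g41370, 2.63 for LOC_Os07g42390, 2.22 for LOC_Os08g04740, 3.43 for LOC_Os09g10330, 2.37 for LOC_Os10g25180 and 2.89 for LOC_Os11g18140. In each of them both CRISPR libraries were above WT and both overexpression libraries. The test that picked these 7 bears on the part of that order between CRISPR and overexpression. The same order held for 63 of the 78 and for 13.5% of the 20428 genes with at least 1 CPM in every 72 HAF library. Over all genes tested 0.447% were higher and 0.526% lower. Without OE78 or without OE79 at 72 HAF none of these 7 passed, and without CR78 or without CR79 at 72 HAF 1 did, LOC_Os07g42390. Each rests on 2 libraries against 2. The WT level is shared by both differences from WT and drops out of these log2 values. They are thus the same results as those given above for the CRISPR against the overexpression class.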

How the results depend on the processing

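All 3 class medians over the 78 genes kept their sign under every alternative run, and no single gene named as passing changed sign. The count of genes in the set was 78, and 30 or 188 with at most 0 or 10 reads at 48 HAF, 135 or 20 with at least 0.5 or 5 CPM at 72 HAF, 79 with TMM-scaled totals, and 84 to 109 when a genotype was left out of the rule. For CRISPR against overexpression the count of the 78 that passed was 7 in the main test, 44 without a filter, 29 with DESeq2 and 29 with the 72 HAF libraries alone, and between 0 and 12 when a library was left out. Over all genes it was 259, and 397 with library totals, 2061 without a filter, 1222 with DESeq2, 644 with 72 HAF alone, and 5 to 485 when a library was left out. The median log2 difference of the 78 was 1.23 to 1.82 in those runs. For CRISPR against WT the 78 gave 0, but 25 without a filter, 10 with DESeq2 and 1 with 72 HAF alone. Over all genes that contrast gave 1, and 2 with library totals, 905 without a filter, 254 with DESeq2, 4 with 72 HAF alone and 1 to 46 when a library was left out. For overexpression against WT none of the 78 passed under any alternative, with a median of -0.38 to -0.26 when a library was left out. Over all genes it gave 2, and 150 without a filter, 1 at a minimum count of 30, 44 with DESeq2, 1 with 72 HAF alone and 1 to 2 when a library was left out. The cause of these differences was not tested, and an arm left with 1 library takes its spread from the other groups. At 4-fold in place of 2-fold against WT, 17 genes passed for CR78, 11 for CR79, 3 for OE78 and 0 for OE79. No paired analysis was possible because each line has 1 library at 72 HAF and a block for the line takes up the difference between classes at that time. A test of the change over time between classes could carry such a block, but it was not run, since the choice of genes used that change. Contrasts with WT could not be made without WT at 72 HAF. Levels near 1 CPM rest on few reads.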

Other observations

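By its identifier LOC_Os09g02790, 1 of the 78 genes, lies near MADS78 (LOC_Os09g02830) on chromosome 9. At 72 HAF it stood at 3.98 CPM in CR78 and 3.59 in CR79, against 3.44 in WT, 4.24 in OE78 and 1.303 in OE79. OE78, the library with 2116 reads of MADS78, was the highest of the 5 and OE79 the lowest, and a link with MADS78 was not tested. It was singled out after its values were seen. LOC_Os12g22650 and LOC_Os12g22680, which have 2 counted features between them, were the only close pair in which CR79 lay below WT for both genes, at 2.20 against 6.37 CPM and at 17.8 against 22.1 CPM. With 1 library for each value, these differences have no replicate.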
